A study of Homo sapiens with 6 samples.

Results

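Collagen genes were compared between 786-O cells carrying an shRNA against PLEKHO1 and the same cells carrying a control shRNA. The 43 collagen genes are those whose symbol has the form COL, a type number, A and a chain number, read from probe sets that the array's annotation assigns to exactly 1 gene symbol. They were 43 of 18132 genes measured, and 121 of 44988 probe sets (groups of short oligonucleotides that report 1 transcript region). Each gene was read from its brightest probe set, that with the highest mean over the 6 arrays. COL17A1 is not analysed here.

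Collagens are secreted matrix proteins whose chains wind around each other into a helical rod. Chains are modified, folded and assembled in the endoplasmic reticulum, carried out through COPII-dependent transport and, for many types, trimmed and cross-linked outside the cell. Fibrillar collagens give tissues their tensile strength, fibril-associated collagens coat those fibrils, collagen IV forms the network of basement membranes, and collagen VI forms beaded filaments at cell surfaces. In the kidney, collagen IV chains build the basement membranes of glomeruli and tubules, and fibrillar collagens are produced in interstitial scarring.

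786-O is an established human line derived from clear cell carcinoma of the kidney. The 3 control arrays are labelled shNC with genotype control, and the 3 knockdown arrays are labelled shPLEKHO1. The treatment text of both groups names lentiviral delivery of an shRNA against PLEKHO1, so the sequence and target of the shNC construct are not given, nor are the time after infection, any selection or the number of shRNAs. No label says whether the 3 arrays of a group came from separate cultures, so p-values measure only how these arrays vary, and that variation may be technical.

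Values are probe set intensities on a linear scale, and fold changes were taken on log2(intensity + 1) after quantile normalization. Here "rose" and "fell" mean an adjusted p below 0.05 in limma with Benjamini-Hochberg adjustment over 18132 genes, and shPLEKHO1 minus shNC is the direction of every difference. PLEKHO1 itself read 135 ± 8.24 (SD, n = 3) with shNC and 108 ± 9.42 with shPLEKHO1, a log2 difference of -0.32 ± 0.08 (SE), with a limma adjusted p of 0.0123. That is a fall of 19.9%, and the exact two-sided permutation p was 0.1, the smallest that 3 against 3 arrays allow. Array medians lay between 55.7 and 57.1, and arrays correlated at 0.998 to 0.999 within groups and 0.989 to 0.990 between groups. The 8 measured markers of clear cell renal carcinoma lines were all brighter than the median gene, whose mean intensity was 81.7, whereas 1 of 10 fibroblast and pericyte markers, 0 of 8 endothelial markers and 1 of 7 leukocyte markers were.

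Few collagen genes changed. Of the 43, 2 rose (COL12A1 and COL15A1), 4 fell (COL6A1, COL14A1, COL18A1 and COL8A1) and 37 did not pass the test. The changed share was 14% of collagens, beside 34.1% of all genes tested, of which 18.1% rose and 16% fell. The median log2 difference over the 43 was 0.00, beside 0.01 over all genes, and the median size of the difference was 0.08, beside 0.12. In 13 collagens the 3 arrays of 1 group lay entirely above those of the other group, 7 higher and 6 lower with shPLEKHO1, beside 44.9% of all genes.

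Most collagens were dim on these arrays. Of the 43, 11 were brighter than the median gene and 4 of these 11 changed, beside 55.4% of all genes above that median. The other 32 lay at or below it, where 2 changed, beside 12.7% of all genes there. Collagens whose test was not passed had 95% confidence intervals that reached from -0.34 at the lowest to 0.46 at the highest on the log2 scale, so shifts beyond these bounds lay outside every such interval.

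**Figure D1:**
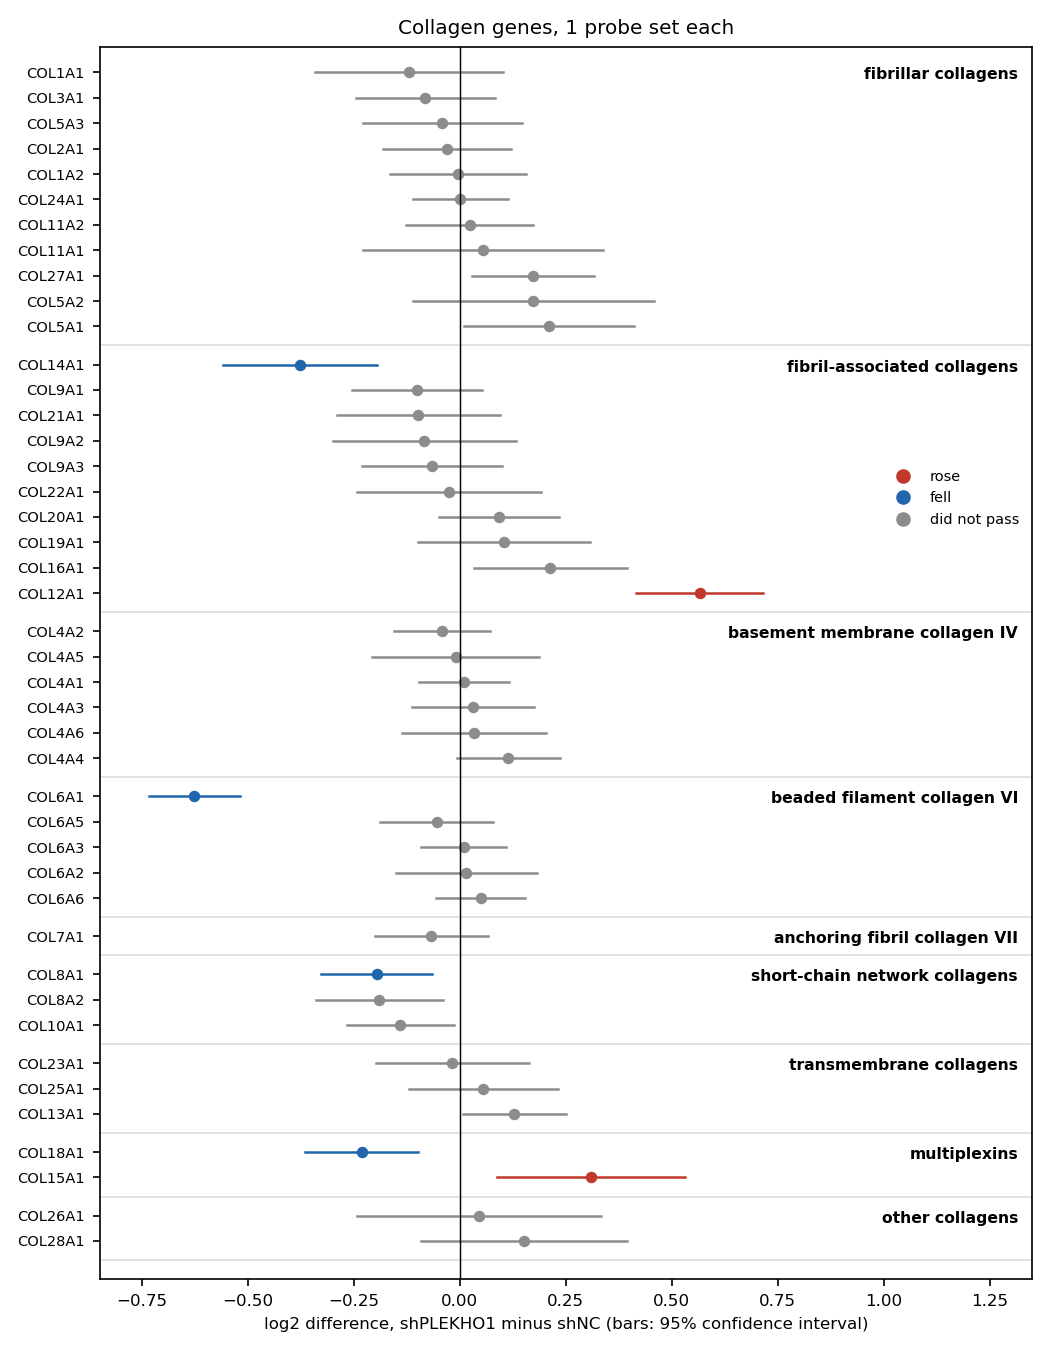
Log2 difference of shPLEKHO1 minus shNC for each of the 43 collagen genes, grouped by collagen class, with bars for the 95% confidence interval from limma and n = 3 arrays per group. COL6A1 at -0.63 and COL12A1 at 0.57 stand at the ends, and most other genes lie near 0.

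Promoter sequences of the collagens whose arrangement bears on the comparisons are shown here from the RefSeq table for GRCh38.p14, 5′ to 3′ on each gene's strand unless stated otherwise. Each ends at the base before the annotated start. The table held 43 entries for 31 of the 43 collagens. The entries for COL4A1 and COL4A2 share a stretch of 126 bases between their starts, chr13:110307158-110307283, printed on the plus strand, because both genes are transcribed from it in opposite directions. COL12A1 (chr6:75206054-75206303, minus strand) is shown as the collagen with the clearest rise, and COL18A1 (plus strand) has 2 annotated starts, at chr21:45404915-45405164 and chr21:45455272-45455521, beside probe sets that differed in their response. Capitals mark the GC box GGGCGG and CCAAT, found on either strand, so that CCGCCC is the same GC box read from the other strand.
COL4A1 and COL4A2: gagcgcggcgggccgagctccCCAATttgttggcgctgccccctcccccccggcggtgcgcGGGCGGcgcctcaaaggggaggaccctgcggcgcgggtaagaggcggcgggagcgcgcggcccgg
COL12A1: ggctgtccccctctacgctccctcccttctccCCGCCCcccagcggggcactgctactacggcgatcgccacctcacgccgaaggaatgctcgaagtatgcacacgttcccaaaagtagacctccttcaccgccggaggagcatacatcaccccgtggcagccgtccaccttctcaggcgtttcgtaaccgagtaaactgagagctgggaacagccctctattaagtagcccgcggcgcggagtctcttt
COL18A1 start 1: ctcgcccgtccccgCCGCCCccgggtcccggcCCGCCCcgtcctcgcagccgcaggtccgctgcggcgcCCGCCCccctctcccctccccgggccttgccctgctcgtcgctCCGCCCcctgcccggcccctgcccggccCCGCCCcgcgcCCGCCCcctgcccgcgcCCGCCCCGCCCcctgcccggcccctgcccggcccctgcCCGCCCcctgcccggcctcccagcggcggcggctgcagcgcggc
COL18A1 start 2: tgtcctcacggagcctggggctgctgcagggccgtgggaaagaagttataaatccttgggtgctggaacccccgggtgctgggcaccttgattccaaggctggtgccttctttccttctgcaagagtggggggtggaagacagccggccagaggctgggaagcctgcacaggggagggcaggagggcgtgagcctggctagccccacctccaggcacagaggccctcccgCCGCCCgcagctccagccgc

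The stretch between COL4A1 and COL4A2 holds 1 GC box and 1 CCAAT, and 80% of its bases are G or C. The COL12A1 window holds 1 GC box, the first COL18A1 window 9, and the second COL18A1 window 1. Over the 250 bases before the start, GGGCGG on either strand occurs in 42.6% of all 35116 promoters in the table and in 24 of the 43 collagen entries. CCAAT occurs in 32% of all promoters and in 11 collagen entries, and TGANTCA, the letters bound by AP-1 factors, in 6.57% and in 1. In windows of 126 bases, as long as the COL4A1 and COL4A2 stretch, GGGCGG occurs in 34.6% of all promoters and CCAAT in 21.1%. These matches describe letters and not binding.

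COL6A1 had the largest fall among the collagens. It encodes the alpha-1 chain, which assembles with the chains of COL6A2 and COL6A3 into the collagen VI monomer. Its intensities were 1663, 1663 and 1696 with shNC and 1075, 1131 and 1084 with shPLEKHO1. Every knockdown array lay far below every control array. COL6A1 fell 1.54-fold, from 1674 ± 18.9 to 1097 ± 29.8 (SD, n = 3), with a log2 difference of -0.63 ± 0.05 and a limma adjusted p of 3.6e-05. Of its 6 probe sets, 2 fell and none rose. The brightest ends in _s_at, a name given to probe sets that can match several transcripts. COL6A1 gave -0.32 on the log2 scale without probe sets ending in _s_at or _x_at, -0.23 as the mean of its probe sets, and -0.20 with its second brightest probe set, whose limma adjusted p was 0.128.

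None of the other 4 collagen VI genes passed the test in its brightest probe set. COL6A3, among the brightest collagens, read 4575, 4536 and 4431 with shNC and 4487, 4396 and 4455 with shPLEKHO1. These groups overlap, and the log2 difference was 0.01 with a limma adjusted p of 0.906. COL6A2 read 210, 208 and 202 with shNC and 208, 230 and 184 with shPLEKHO1, a difference of 0.02 with an adjusted p of 0.901 in limma. Its second brightest probe set, with 132, 134 and 136 against 113, 115 and 117, fell by 0.22 ± 0.05 on the log2 scale with a limma adjusted p of 0.00996. The COL6A2 result therefore differs between its probe sets. COL6A5 and COL6A6, alternative chains that can stand in for the alpha-3 chain, were dim at 12.8 and 11.0 with shNC, with log2 differences of -0.05 and 0.05, and neither passed the test.

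Within each array, the log2 intensity of COL6A1 minus that of COL6A3 was -1.41 ± 0.04 (SD, n = 3) with shNC and -2.04 ± 0.04 with shPLEKHO1, a shift of -0.64. The same quantity for COL6A1 minus COL6A2 shifted by -0.64 too, from 3.03 ± 0.06 to 2.39 ± 0.12. Both shifts are close to the COL6A1 fall itself, because COL6A3 and COL6A2 differed by only 0.01 and 0.02 in the probe sets used. In their brightest probe sets not ending in _s_at or _x_at, COL6A1 and COL6A2 both fell, with log2 differences of -0.32 and -0.22. The shift of COL6A1 against COL6A2 therefore depends on the probe sets chosen. Both pairs were chosen after values were seen and are a description with no test. Intensities of different probe sets do not give the ratio of transcripts.

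**Figure D2:**
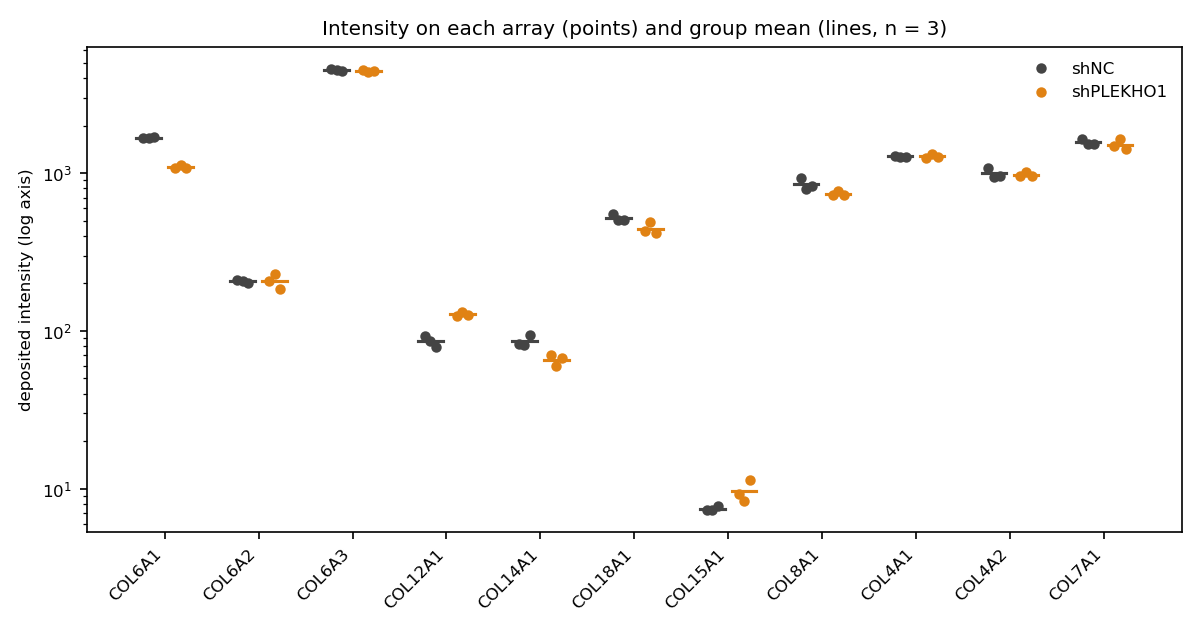
Intensity of selected collagen genes on each of the 6 arrays, on a log axis, with points for single arrays of shNC and shPLEKHO1 and lines for group means. COL6A1 with shPLEKHO1 lies between 1075 and 1131, below all shNC arrays at 1663 to 1696, and COL12A1 with shPLEKHO1 lies between 124 and 132, above shNC at 79.2 to 92.8.

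Of the 10 fibril-associated collagens, 1 rose, 1 fell and 8 did not pass the test. COL12A1 encodes collagen XII, a homotrimer that attaches to the surface of collagen I fibrils and links them to other matrix proteins. Its intensities were 92.8, 86.0 and 79.2 with shNC and 124, 132 and 127 with shPLEKHO1. All knockdown arrays were above all control arrays. COL12A1 rose 1.48-fold, from 86.0 ± 6.82 to 127 ± 3.85, with a log2 difference of 0.57 ± 0.06 and a limma adjusted p of 0.000319. Of its 4 probe sets 1 rose and none fell, the second brightest gave 0.26 with a limma adjusted p of 0.0790, and the mean of its probe sets gave 0.20.

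COL14A1 encodes collagen XIV, which is closely related to collagen XII and also decorates fibrils. It read 82.4, 81.7 and 93.9 with shNC and 70.4, 59.8 and 67.2 with shPLEKHO1. The groups did not overlap. COL14A1 fell 1.30-fold, with a log2 difference of -0.38 ± 0.08 and a limma adjusted p of 0.0067, and 2 of its 4 probe sets fell. Within arrays, the log2 intensity of COL12A1 minus COL14A1 went from 0.00 ± 0.21 with shNC to 0.94 ± 0.14 with shPLEKHO1, a pair chosen after values were seen and given with no test.

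The other 8 fibril-associated collagens had log2 differences between -0.10 and 0.21. None of these 8 passed the test. COL16A1, a minor fibril-associated collagen, came nearest, with 67.0 ± 7.57 against 77.4 ± 1.19, a log2 difference of 0.21 ± 0.08 and a limma adjusted p of 0.0712, and its groups did not overlap. The collagen IX genes COL9A1, COL9A2 and COL9A3, whose product coats cartilage fibrils, had differences of -0.10, -0.08 and -0.07 on the log2 scale.

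The multiplexins, basement membrane collagens with an interrupted helix, also split. COL18A1 encodes collagen XVIII, the source of the fragment endostatin. Its brightest probe set read 553, 506 and 507 with shNC and 430, 487 and 418 with shPLEKHO1. All knockdown arrays were lower, by 1.17-fold on average, with a log2 difference of -0.23 ± 0.06 and a limma adjusted p of 0.0157. Its second probe set read 445, 433 and 422 against 257, 279 and 247, and fell 1.65-fold with a log2 difference of -0.72 ± 0.05 and a limma adjusted p of 2.8e-05. Both COL18A1 probe sets fell, by unequal amounts: within arrays, the second minus the first was -0.27 ± 0.04 on the log2 scale with shNC and -0.76 ± 0.03 with shPLEKHO1. Which of the starts shown above each probe set reports is not known from the files. The call of the brightest probe set was lost without shNC replicate 1 (adjusted p in limma 0.0502), without shPLEKHO1 replicate 1 (0.0507) and without shPLEKHO1 replicate 3 (0.0560).

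COL15A1 encodes collagen XV, the close relative of collagen XVIII. It read 7.31, 7.31 and 7.70 with shNC and 9.29, 8.29 and 11.3 with shPLEKHO1. The groups did not overlap, and COL15A1 rose by the test, with a log2 difference of 0.31 ± 0.10 and a limma adjusted p of 0.0391 from its single probe set. These values lie near the floor of the arrays, where the background control probe set labelled GC15 read 10.5 with shNC and 10.8 with shPLEKHO1. Such controls ran from 4.72 for GC03 through 55.3 for GC20 to 1926 for GC25 with shNC. The GC content of the COL15A1 probes is not given, so GC15 is only 1 example, and brighter genes can also lie within this range. Background control probe sets of higher GC content were brighter with shPLEKHO1, by a log2 difference of 0.12 for GC20 and 0.19 for GC24, and their part in the results for dim genes was not tested. COL15A1 kept its call in 10 of 15 alternative settings, and lost it without shNC replicate 1, 2 or 3 or shPLEKHO1 replicate 1, with adjusted p-values in limma from 0.0588 to 0.106, and with a pseudocount of 16 (0.0816). Without shPLEKHO1 replicate 3 its log2 difference was 0.20.

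Of the 3 short-chain network collagens, 1 fell. COL8A1 encodes a chain of collagen VIII, which forms lattices beneath vascular and corneal endothelium. It read 935, 791 and 823 with shNC and 723, 776 and 730 with shPLEKHO1. COL8A1 fell 1.15-fold, with a log2 difference of -0.20 ± 0.06 and a limma adjusted p of 0.0286. COL8A2, the partner chain, had -0.19 ± 0.06 with an adjusted p of 0.0555 in limma, and COL10A1, the collagen of growth plate cartilage, had -0.14 ± 0.05 with 0.0871. In all 3 genes the knockdown arrays lay below the control arrays on the normalised scale, beside 44.9% of all genes whose groups did not overlap in either direction. However, COL8A2 and COL10A1 were dim, at 12.5 and 9.27 with shNC, and did not pass. In the deposited values the COL8A2 groups overlap. The second probe sets of COL8A2 and COL10A1 also had overlapping groups, with log2 differences of -0.05 and 0.04. The COL8A1 call held in 10 of 18 alternatives and was lost without shNC replicate 1, shNC replicate 3, shPLEKHO1 replicate 1 or shPLEKHO1 replicate 3, with adjusted p-values up to 0.0836, and with median centring (0.110).

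None of the 6 basement membrane collagen IV genes passed the test in its brightest probe set. COL4A1 and COL4A2 encode the chains of the most widespread collagen IV network and share the stretch printed above. COL4A1 read 1291, 1274 and 1263 with shNC and 1244, 1323 and 1266 with shPLEKHO1, and COL4A2 read 1077, 952 and 964 against 962, 1019 and 954. The groups overlap in both, with log2 differences of 0.01 (limma adjusted p 0.903) and -0.04 (0.585). Within arrays, COL4A1 minus COL4A2 was 0.35 ± 0.09 on the log2 scale with shNC and 0.40 ± 0.02 with shPLEKHO1, a shift of 0.05. The second brightest COL4A1 probe set differed from the first: it read 269, 251 and 262 against 291, 310 and 297, and rose by 0.21 ± 0.05 with a limma adjusted p of 0.00901. COL4A3, COL4A4, COL4A5 and COL4A6, the chains of the specialised collagen IV networks of glomerular and other basement membranes, had log2 differences of 0.03, 0.11, -0.01 and 0.03, and none passed.

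COL7A1 encodes the anchoring fibril collagen that ties epithelial basement membranes to the tissue beneath. It read 1638, 1532 and 1539 with shNC and 1482, 1645 and 1431 with shPLEKHO1. The groups overlap, and the log2 difference was -0.07 ± 0.06 with a limma adjusted p of 0.443.

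The fibrillar collagens were dim and none of the 11 changed in its brightest probe set. Their mean intensities over all arrays lay between 10.9 and 76.7, below that of the median gene, and their log2 differences between -0.12 and 0.21. COL1A1 and COL1A2, the chains of collagen I, are the most abundant collagens of scar tissue. COL1A1 read 65.9, 73.0 and 76.6 with shNC and 76.6, 60.5 and 61.4 with shPLEKHO1, a log2 difference of -0.12 ± 0.10 with a limma adjusted p of 0.406. A dimmer COL1A1 probe set rose by 0.19 ± 0.06 with a limma adjusted p of 0.0418, and a dimmer COL11A1 probe set by 0.32 ± 0.10 with 0.0331. COL1A2 was at 17.7 ± 0.71 against 17.9 ± 1.81 and COL3A1, the collagen III chain, at 11.1 ± 0.40 against 10.6 ± 1.36, with overlapping groups. COL27A1 was the only fibrillar gene whose groups did not overlap, with 72.1 ± 0.82 against 81.2 ± 5.45 and a limma adjusted p of 0.0685, and COL5A1 had the highest log2 difference of the class, 0.21 ± 0.09, with an adjusted p of 0.105 in limma. In these bulk samples, fewer cells that express a gene and less RNA per cell cannot be told apart.

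The transmembrane collagens and the remaining types did not pass in their brightest probe sets either. COL13A1, a membrane-anchored collagen of cell adhesion sites, read 157 ± 9.42 against 170 ± 4.03, with a log2 difference of 0.13 ± 0.05 and a limma adjusted p of 0.101. COL23A1 and COL25A1, which also span the membrane, had differences of -0.02 and 0.06, and COL26A1 and COL28A1 had 0.05 and 0.15, on the log2 scale.

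Several probe sets of 1 gene were called only in COL6A1, COL14A1 and COL18A1, and in each of these genes 2 fell and none rose. Of the 121 probe sets tested on their own, 6 rose and 8 fell, beside 33.0% of all 44988 probe sets changed (17.3% rose and 15.7% fell), and these 14 belonged to 11 genes. The 4 genes that were called only in a probe set other than the brightest, besides COL6A2, were COL4A1, COL1A1, COL11A1 and COL13A1, and in each of these 4 that probe set rose. There were 29 collagens with several probe sets and 14 with 1.

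**Figure D3:**
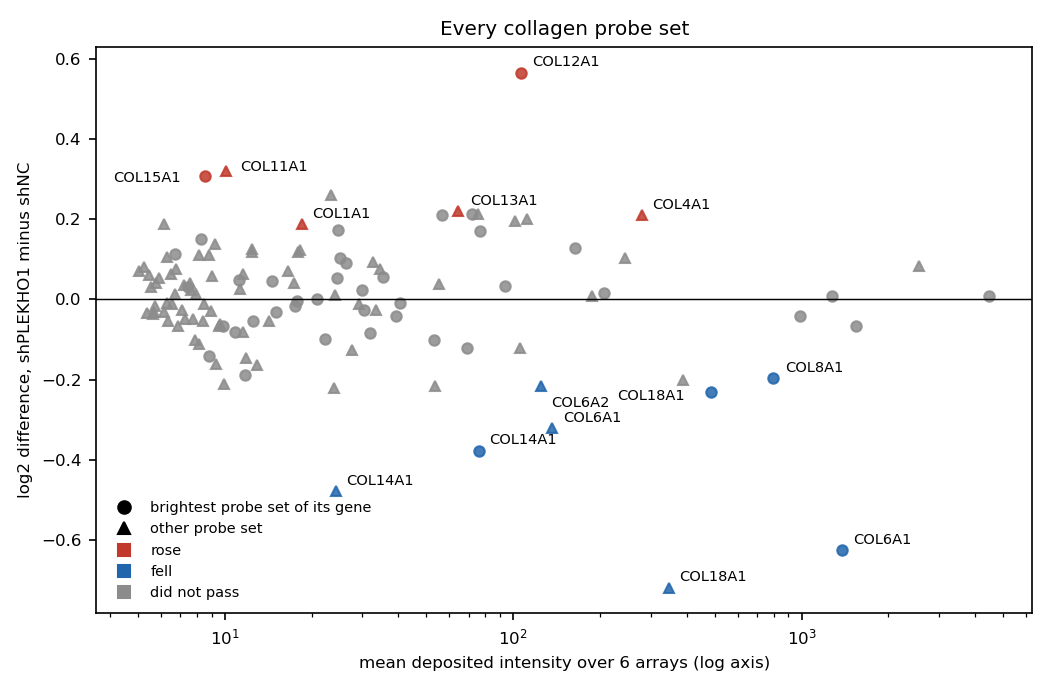
Log2 difference of shPLEKHO1 minus shNC for the individual probe sets of collagen genes, 1 point per probe set, against their mean intensity over the 6 arrays on a log axis. Circles are the brightest probe set of a gene and triangles the others, red and blue mark those that rose and fell by limma at an adjusted p below 0.05, and 6 red and 8 blue points are named.

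The genes that act on collagens are given by step, from the chain to its degradation. Of 19 measured genes for chain modification and folding, 4 rose and 11 fell, a changed share of 78.9% beside 34.1% of all genes, with a median log2 difference of -0.22 beside 0.01. This list is bright, with 18 of 19 genes above the median gene, and 14 of these 18 changed, beside 55.4% of all genes above it. SERPINH1, the collagen-specific chaperone HSP47, read 1664, 1440 and 1481 with shNC and 975, 1018 and 1005 with shPLEKHO1. All control arrays were above all knockdown arrays, and SERPINH1 fell with a log2 difference of -0.63 ± 0.05 and a limma adjusted p of 5.7e-05, with all 3 probe sets falling. P3H4, a partner of the lysyl hydroxylase complex that modifies collagen helices, had the largest difference of the list. It read 349, 331 and 322 against 132, 157 and 153, and fell 2.25-fold, with a log2 difference of -1.17 ± 0.07.

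The lysyl hydroxylases went in different directions. PLOD1, which modifies helical lysines, fell by 0.51 ± 0.05 on the log2 scale, while PLOD2, which modifies telopeptide lysines used in stable cross-links, rose by 0.44 ± 0.06. PLOD2 read 3138, 3264 and 3110 with shNC and 4345, 4101 and 4452 with shPLEKHO1, with no overlap, and all 4 of its probe sets rose. COLGALT1, which adds galactose to hydroxylysine, fell by 0.40 ± 0.05. TMEM38B, an endoplasmic reticulum cation channel needed for collagen assembly, rose by 0.36 ± 0.05. The 3 members of the proline 3-hydroxylation complex, P3H1, CRTAP and PPIB, fell by 0.26, 0.24 and 0.25 on the log2 scale, and P4HB, the beta subunit of prolyl 4-hydroxylase, by 0.22 with all 6 probe sets falling. P4HA1, a catalytic alpha subunit of that enzyme, fell by 0.16 with an adjusted p of 0.0455 in limma, a call lost in 10 of 16 alternatives, among them those without any 1 array except shPLEKHO1 replicate 3. The other catalytic alpha subunits went the other way: P4HA2 rose by 0.20 ± 0.04, from 2565 ± 83.7 to 2917 ± 39.8, with a limma adjusted p of 0.0100, and P4HA3, which was dim, rose by 0.30 ± 0.07 with 0.0122.

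Of the 14 genes for procollagen secretion, 2 rose and 7 fell, and the median log2 difference was -0.23. The changed share was 64.3%, and all 14 lay above the median gene, where 55.4% of all genes changed. VIPAS39, which sorts the lysyl hydroxylase LH3 toward collagen, fell by 0.87 ± 0.06 on the log2 scale, from 179 ± 5.02 to 96.5 ± 4.55. VPS33B, on the same list, rose by 0.23 ± 0.05 with a limma adjusted p of 0.00972, in both of its probe sets. COPII genes were called in both directions. SEC31A and SEC13, of the outer coat, fell by 0.37 and 0.30, SAR1A, a GTPase that starts coat assembly, rose by 0.35 ± 0.06. SAR1B, its paralog, and the inner coat genes SEC23A and SEC24D were at 0.15, 0.02 and -0.11 and did not pass. PREB and TFG, which act at the exit sites of the endoplasmic reticulum, fell by 0.41 and 0.28. For SEC13, the brightest probe set whose name does not end in _s_at or _x_at gave a difference of 0.04. These genes serve general secretion as well as collagen. MIA3 and KLHL12, the other called genes of the list, also fell, with log2 differences of -0.30 and -0.23.

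The next steps, propeptide cleavage and cross-linking, take place largely outside the cell. Of their 14 measured genes, 2 rose and 1 fell, a share of 21.4% beside 34.1% of all genes, with a median log2 difference of -0.02. Above the median gene lay 7 of the 14, and 1 of these 7 changed, beside 55.4% of all genes there. TGM2, a transglutaminase that cross-links matrix, rose by 0.26 ± 0.04 on the log2 scale, with all 4 probe sets rising, and TLL2, a tolloid-like protease, rose by 0.25 ± 0.06, a call lost without shNC replicate 2 or shPLEKHO1 replicate 2 or 3, with adjusted p-values in limma up to 0.0591. ADAMTS3, which trims procollagen II, fell by 0.23 with an adjusted p of 0.0487 in limma, a call lost in 11 of 17 alternatives, among them those without replicate 1 or 3 of either group. LOX, the lysyl oxidase that starts cross-links, was at 96.4 ± 6.73 against 85.9 ± 6.37, a log2 difference of -0.17 with a limma adjusted p of 0.116, although 3 of its 6 probe sets fell and their mean gave -0.32 with a limma adjusted p of 0.000494. Without shPLEKHO1 replicate 3 the list's changed count was 1 instead of 3.

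Of 17 measured collagen-binding matrix proteins, 2 rose and 1 fell, 17.6% changed beside 34.1% of all genes, with a median log2 difference of 0.00. Of the 17, 7 lay above the median gene and 2 of these 7 changed, beside 55.4% of all genes there. LUM, the small proteoglycan lumican that spaces collagen fibrils, rose by 0.81 ± 0.07, from 25.7 ± 1.18 to 45.8 ± 4.65. It was dimmer than the median gene, with a mean of 35.8 over all arrays, and had 1 probe set, whose name ends in _s_at. LUM is also on the fibroblast and pericyte marker list, of whose 10 members 2 rose, LUM and ACTA2, and the others did not pass. The list's summed intensity was 337 to 340 with shNC and 462 to 492 with shPLEKHO1. Most of that difference came from ACTA2, which went from 90.4 ± 2.38 to 198 ± 6.61 and rose in 1 of its 3 probe sets. The part of that list in the collagen results was not tested. THBS1, thrombospondin-1, rose by 0.22 ± 0.06, with all 5 probe sets rising, but its limma call was lost without any 1 array except shPLEKHO1 replicate 2 (adjusted p up to 0.108). NID2, a nidogen that links collagen IV to laminin, fell by 0.30 ± 0.04, in 1 of its 2 probe sets. Its call held in 17 of 17 alternatives, with log2 differences from -0.31 to -0.16. SPARC, a collagen-binding matricellular protein, differed by -0.02 with a limma adjusted p of 0.794. As the mean of its 8 probe sets, SPARC differed by -0.30 with a limma adjusted p of 0.000406.

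Among 12 collagen receptors 1 rose and 3 fell, 33.3% changed beside 34.1% of all genes, with a median log2 difference of 0.00. Above the median gene lay 6 of the 12, and 3 of these 6 changed, beside 55.4% of all genes there. ITGA2, the alpha-2 subunit of the collagen-binding integrin, rose by 0.54 ± 0.07 on the log2 scale, from 85.4 ± 6.26 to 124 ± 9.12, with both probe sets rising. ITGA1, the alpha-1 subunit, was dim and fell by 0.38 ± 0.09, from 21.2 ± 1.07 to 16.3 ± 2.27, a call lost without shNC replicate 3 (limma adjusted p 0.0537). ADGRG1, a receptor for collagen III, fell by 0.55 ± 0.05 in its brightest probe set, the 1 of its 3 probe sets that fell. MRC2, which takes up collagen for degradation, fell by 0.14 with an adjusted p of 0.0460 in limma, lost in 12 of 17 alternatives, those without any 1 array included, and DDR1, a collagen-activated tyrosine kinase, differed by -0.02 with a limma adjusted p of 0.849. Without shNC replicate 3 the receptors' changed count was 2 instead of 4.

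Collagen degradation genes changed in both directions. Of 18 measured, 6 rose and 4 fell, 55.6% changed beside 34.1% of all genes, with a median log2 difference of -0.01. Above the median gene lay 11 of the 18, and 8 of these 11 changed, beside 55.4% of all genes there. MMP1, an interstitial collagenase, read 179, 160 and 169 with shNC and 316, 320 and 296 with shPLEKHO1. It rose with a log2 difference of 0.88 ± 0.05, and its groups lay far apart. MMP13, another collagenase, read 142, 134 and 140 against 65.7, 82.9 and 76.6, and fell by 0.88 ± 0.08 with 4 of 5 probe sets falling. In their brightest probe sets, the collagenases MMP1 and MMP13 thus moved by like amounts in opposite directions. Over 17 alternatives for each gene, MMP1 lay at 0.83 to 0.91 and MMP13 at -0.95 to -0.51 on the log2 scale. MMP14, the membrane-anchored collagenase, rose by 0.45 ± 0.06 with all 4 probe sets rising, and MMP10, a stromelysin, rose by 0.53 ± 0.09 from a dim level of 7.02 ± 0.26. MMP2, a gelatinase, differed by -0.06 with a limma adjusted p of 0.374. TIMP2, an inhibitor of these proteases, fell by 0.70 ± 0.05 in 1 probe set, the brighter of its 2, while the other rose by 0.48, and their mean was -0.11 with a limma adjusted p of 0.0782.

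Of 24 regulators of collagen transcription, 7 rose and 2 fell, 37.5% changed beside 34.1% of all genes, with a median log2 difference of 0.08. Above the median gene lay 19 of the 24, and 8 of these 19 changed, beside 55.4% of all genes there. TGFB2, a TGF-beta ligand known to induce collagen genes, read 241, 227 and 256 with shNC and 529, 562 and 509 with shPLEKHO1. TGFB2 rose by 1.15 ± 0.06 on the log2 scale, with both probe sets rising. TGFB1 fell by 0.26 ± 0.06 and TGFBR2, the type II receptor, fell by 0.66 ± 0.05. ETS1, a transcription factor with matrix gene targets, rose by 0.72 ± 0.05 with all 3 probe sets rising. The signal transducers SMAD3 and SMAD2 rose by 0.71 and 0.53 in their brightest probe sets, but 2 of 5 SMAD3 probe sets and 4 of 7 SMAD2 probe sets fell, and over the mean of its probe sets SMAD2 was at -0.39 and SMAD3 at 0.17.

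**Figure D4:**
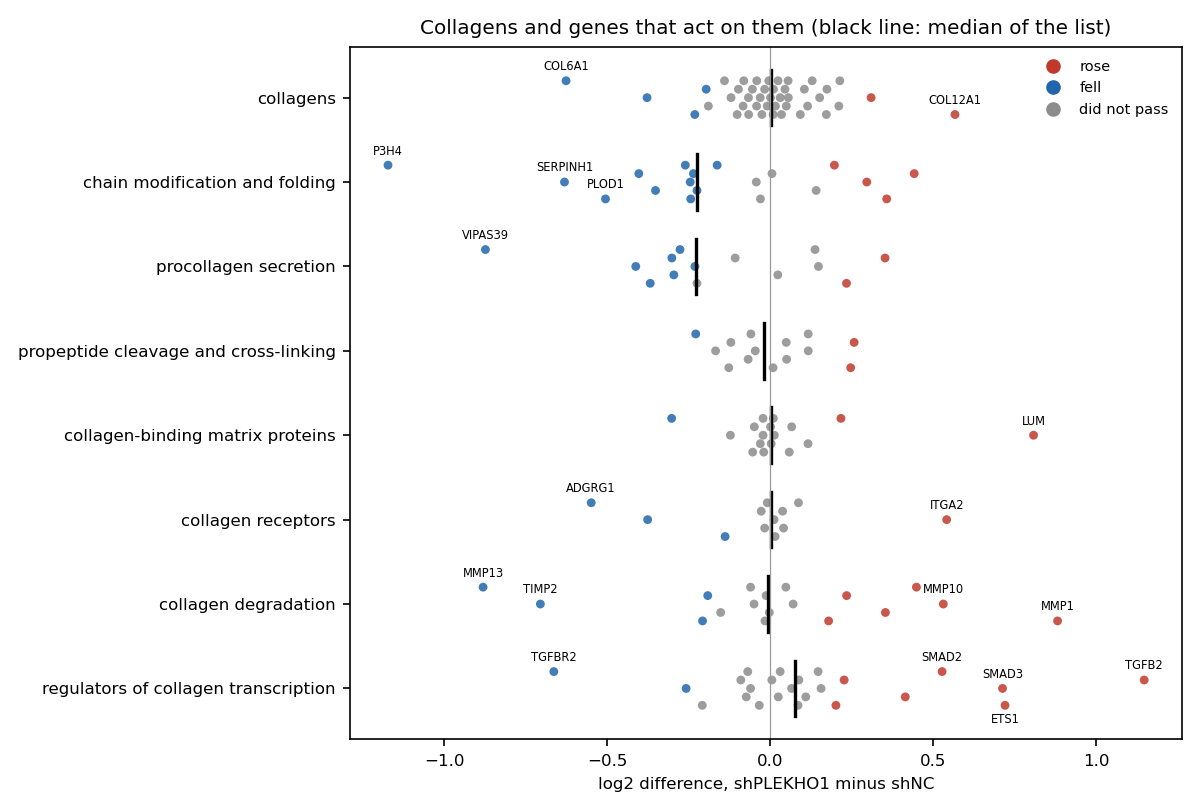
Log2 difference of shPLEKHO1 minus shNC for the collagens and for each list of genes that act on collagens, 1 point per gene, with red points for genes that rose and blue for genes that fell by limma at an adjusted p below 0.05 and a black line for each list's median. The medians of chain modification and folding at -0.22 and of procollagen secretion at -0.23 lie below those of the other lists, which run from -0.02 to 0.08.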

How the data were processed

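Total RNA from 786-O cells was hybridised to 6 Affymetrix arrays of 1 colour, 3 per group, and arrays were grouped by the genotype in the labels. Per the submitters' processing notes, Affymetrix Expression Console was used. Its version and algorithm, and whether arrays were normalised to each other, are not given in the sources used. Each deposited value is a probe set intensity, linear, from 4.33 to 19770, and any background left in it could alter the folds of dim genes. The number of arrays, 3 per group, limits the precision.

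Of 49395 probe sets, 1832 had several gene symbols and 2569 had none; these and the 102 controls, which overlap with them, were left out, and 44988 were tested. Symbols came from the array's annotation, which can be old, and were updated through Entrez identifiers with RefSeq (GRCh38.p14), where 44961 matched and 27 kept the array's name. The planned test assumed log2 values; since the deposited values were linear, log2(intensity + 1), with a pseudocount of 1, was taken and quantile normalised. A gene was read from the probe set with the highest mean over the 6 arrays, and probe sets were also tested each on its own. The comparison used limma 3.58.1 (lmFit, eBayes; R 4.3.3) with 4 residual and 3.63 prior degrees of freedom. P-values were adjusted by Benjamini-Hochberg over 18132 genes, with calls at 0.05. The code was tested on simulated data. Replicate numbers did not pair the arrays, so no block was used.

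All collagens are counted in their class, and some of those that did not pass are given only through the range of that class. From each list of other genes, up to 5 called genes with the lowest p were named, plus 12 genes chosen by name. P3H1, CRTAP, PPIB, P4HB, P4HA2, P4HA3, SAR1A, SAR1B, SEC23A, SEC24D, VPS33B, MIA3 and KLHL12 were added after their values were seen. Promoter sequences and motif matches came from a RefSeq promoter table. The members and lists were chosen with earlier results of these data known. Alternatives were other normalizations and pseudocounts, a filter on dim genes, other choices of probe set, other limma settings, a replicate block and leaving out each array.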

Additional observations from a re-analysis of the deposited data

How the results depend on the processing

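Between 4 and 8 collagens changed over the 18 alternatives, but not always the same ones. The second brightest probe sets, with 29 collagens measured, kept 2 of the calls and added 2, beside 32.5% of all genes changed. The filter on dim genes, with 23 measured, kept 5 and added 2, beside 50% of all genes that remained. Leaving out shNC replicate 1 kept 3 and added 2, beside 30.8% of all genes changed. Leaving out shPLEKHO1 replicate 1 kept 3 and added 1, beside 30% of all genes. The replicate block (same-numbered arrays treated as pairs, although no pair of same-numbered arrays deviated together) left 5 collagens changed, with COL8A1 lost, and 5244 genes in all, 28.9%. Leaving out 1 array gave 4 to 7 collagens, beside 28.9% to 31.4% of all genes changed. Array weights gave 5 changed genes for propeptide cleavage and cross-linking instead of 3, and the mean of all probe sets gave 5 for collagen-binding matrix proteins instead of 3. Leaving out 1 array gave 1 to 3 changed genes for propeptide cleavage and cross-linking and 2 to 3 for collagen receptors. The choice of probe set turned some directions. COL6A2 was at -0.22 on the log2 scale with its second brightest probe set and with probe sets whose names do not end in _s_at or _x_at, both added after seeing the data. In the latter setting SEC13 was at 0.035 and TIMP2 at 0.48, and with the mean of all probe sets SMAD2 was at -0.39. COL6A1, COL12A1, COL14A1 and COL18A1 kept their direction in all 18 alternatives as did COL8A1, and COL15A1 in its 15. PLEKHO1 stayed between -0.37 and -0.25 when 1 array was left out. Low signal limits the 32 collagens at or below the median gene: background in the deposited values can change a dim gene's fold, and its part was not tested.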
